A study of Mus musculus with 6 samples.

Results

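The 4554 regions described here are the probes of a mouse array that are named by a genomic interval with a strand reaching over 50 kb or more. They were chosen from their identifiers alone, with no measured value, out of 150305 features other than controls, of which 37852 are named by an interval of any length. The intervals ran from 50001 to 486424 bases, with a median of 80.0 kb and quartiles of 61.3 and 118 kb. Of them 1555 (34.1%) reached over 100 kb or more and 401 over 200 kb or more. The span is the distance between the named ends. Each probe itself is 60 bases long.

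The RNA came from abdominal adipose tissue of C57BL/6 mice that began a high-fat diet when 6 weeks old and had surgery after 12 weeks on it, when they were diabetic per the labels. The mice were randomised to a duodenal-jejunal bypass (DJB) with a biliopancreatic limb of 5 cm and a Roux limb of 4 cm, or to a sham operation in which the intestine was cut in the same way and sewn back in place. DJB carries food past the duodenum and the upper jejunum. There were 3 arrays a group. The labels do not say whether each array is a separate animal, which abdominal depot was taken or how long after surgery, so p-values measure only the spread between these arrays, which may be technical. Total RNA was amplified and labelled with cyanine 3, and the labels' protocols name no step that removes linear RNA.

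Identifiers of this form are used in catalogues of circular RNAs. Such RNAs arise by back-splicing, in which the spliceosome joins the end of a downstream exon to the start of an upstream exon of the same transcript. The introns inside the loop are usually removed, so that an interval of many kilobases can stand for a short RNA, and the circle has no free ends and often outlives the mRNA of its host gene. A probe over the join reads bases from the downstream end first and then bases from the upstream end, the reverse of their genomic order, whereas a probe that lies within exons can also bind the linear mRNA. No file states a transcript class, so the probes are described by their intervals and none is taken to read a circle.

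The probe letters show which bases come from which end. Where several intervals share their upstream end, the letters their probes have in common were taken as that end's bases, and likewise for a shared downstream end. In the probes below, read 5′ to 3′ with GRCm38 coordinates as the identifiers give them, capitals mark the bases from the downstream end and lower case those from the upstream end. They are shown because all of them passed the test for a difference between DJB and Sham. Sgcd codes for delta-sarcoglycan of the dystrophin complex, and its 3 intervals share an upstream end but not a downstream end.
Sgcd chr11:47082779-47355373, minus strand: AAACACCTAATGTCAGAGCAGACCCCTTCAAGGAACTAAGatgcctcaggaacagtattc
Sgcd chr11:47195031-47355373, minus strand: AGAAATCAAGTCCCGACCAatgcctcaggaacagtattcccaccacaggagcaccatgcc
Sgcd chr11:47125535-47355373, minus strand: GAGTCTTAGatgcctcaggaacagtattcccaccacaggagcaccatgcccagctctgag
Sox6 chr7:115943894-116024521, minus strand: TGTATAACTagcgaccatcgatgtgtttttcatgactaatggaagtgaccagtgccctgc
Sox6 chr7:115801369-116024521, minus strand: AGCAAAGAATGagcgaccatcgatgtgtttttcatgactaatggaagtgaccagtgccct
Ryr2 chr13:11759671-11829678, minus strand: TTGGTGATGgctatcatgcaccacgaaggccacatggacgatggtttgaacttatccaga
Stxbp5 chr10:9808420-9866680, minus strand: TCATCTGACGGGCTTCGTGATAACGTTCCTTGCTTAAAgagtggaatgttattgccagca
Stxbp5 chr10:9798122-9866680, minus strand: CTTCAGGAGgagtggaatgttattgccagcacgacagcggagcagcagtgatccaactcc
Mctp1 chr13:76741294-76827801, plus strand: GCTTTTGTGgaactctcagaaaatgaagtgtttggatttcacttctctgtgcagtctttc
Mctp1 chr13:76756986-76827801, plus strand: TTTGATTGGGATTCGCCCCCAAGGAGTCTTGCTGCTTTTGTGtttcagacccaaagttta
Atp6v1h chr1:5095615-5150061, plus strand: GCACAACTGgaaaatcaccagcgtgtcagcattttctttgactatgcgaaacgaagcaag
Dtnb chr12:3589171-3718489, plus strand: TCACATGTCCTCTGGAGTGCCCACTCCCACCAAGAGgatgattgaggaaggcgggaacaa
The 3 Sgcd probes hold 40, 19 and 9 bases from their downstream ends, and the rest of each comes from the start that they share. The Mctp1 probes share their downstream end, so the last letters of both runs of capitals are the same.

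A second set is shown because it holds members, described further on, that changed unlike the mRNA probe of their own gene. In these probes capitals mark the longest run shared with another interval of the same downstream end, so they bound that end's bases without locating the join. Mlip codes for a muscle-enriched protein that binds lamin A, and Fgf13 for an intracellular fibroblast growth factor homologue that binds sodium channels.
Mlip chr9:77164765-77243727, minus strand: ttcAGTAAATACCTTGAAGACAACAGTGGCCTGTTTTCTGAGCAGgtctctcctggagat
Mlip chr9:77164765-77231029, minus strand: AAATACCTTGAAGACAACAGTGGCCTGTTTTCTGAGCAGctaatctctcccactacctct
Mlip chr9:77173959-77231029, minus strand: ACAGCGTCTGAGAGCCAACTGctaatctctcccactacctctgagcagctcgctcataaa
Mlip chr9:77173959-77230954, minus strand: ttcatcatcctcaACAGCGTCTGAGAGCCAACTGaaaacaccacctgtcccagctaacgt
Fgf13 chrX:59125894-59250966, minus strand: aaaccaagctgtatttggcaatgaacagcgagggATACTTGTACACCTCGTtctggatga
Fgf13 chrX:59125894-59216550, minus strand: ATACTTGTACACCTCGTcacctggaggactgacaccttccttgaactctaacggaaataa
In both Fgf13 probes the shared run has 17 bases, but it opens the shorter interval's probe and is preceded by 34 other bases in that of the longer one. The Mlip probes of 77164765-77231029 and 77173959-77231029 share their upstream end and go on with the same letters after their capitals.

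Probes of intervals with a common end shared letters. In 2874 pairs with the same upstream end the longest identical run had a median of 41 bases (quartiles 29 and 51). In 2360 pairs with the same downstream end it had a median of 10 bases (quartiles 9 and 12). Both kinds of partner located the join to the base in 1315 probes (28.9%), with 9 to 51 bases from the downstream end. The median was 10 bases from the downstream end followed by 50 from the upstream end. In 663 of those probes (50.4%) the join lay 9 or 10 bases from the start, the shortest run used being 9 bases, and in 316 (24.0%) between bases 21 and 40. In 1238 of the 2553 probes with both kinds of partner the bounds did not meet and no join was placed. The GC content had a median of 45% in these probes and in those of shorter intervals.

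**Figure D1:**
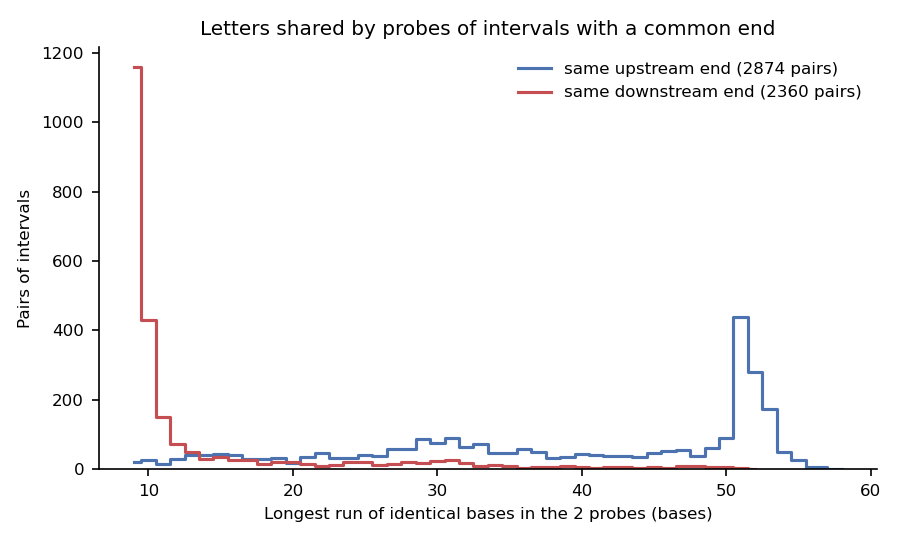
Number of pairs of intervals of 50 kb or more (y axis) by the longest run of identical bases in their probes (x axis, in bases), drawn separately for the 2874 pairs with the same upstream end and the 2360 with the same downstream end. Pairs with a common downstream end pile up at 9 or 10 bases and those with a common upstream end near 51, so most of a probe's letters usually belong to the upstream end.

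Most intervals could be placed in a gene. By position, 4403 (96.7%) fell within a GRCm38.p6 gene, whereas 23.2% and 22.1% did once moved by 500000 bases either way, and their coordinates were read as that build although the file headers name mm9. A host gene on the same strand was named for 3421 intervals, a host by position only for 960 whose gene's strand the tables did not give, and none for 165. The other 8 lay in a gene of the opposite strand. The 1101 host genes held 1 interval or more, with 38 in Lrrc7 and 31 each in Dennd1a and Gphn. Chromosome 1 held 522 intervals, chromosome 2 held 408, chromosome 7 held 47 and chromosome Y held 1. In 125 cases the interval held a whole protein-coding gene. Exons and introns were not used here, so it is not said which exon an end falls in. Of 59 members that share 25 bases with a probe for a RefSeq mRNA on the same strand, 57 had a named host, and in all 57 the gene was that host.

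These probes were dim. A member was tested when 3 or more of the 6 arrays showed it well above background, and 3244 members (71.2%) did, against 66.2% of all probes and 83.1% to 88.9% of the shorter interval classes. Of the rest, 977 were above background on no array, and 2881 of the tested were above it on all 6. Between 69.4% and 74.1% of members were above background on a Sham array, and between 67.3% and 69.5% on a DJB array. The median processed signal of tested members was 47.3 to 51.8 in Sham but 36.2 to 44.9 in DJB. After each array's 75th percentile was subtracted on the log2 scale, those medians lay between -1.89 and -1.82 in every array, while those of all tested probes lay between -0.99 and -0.95.

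The arrays differed in brightness and in slide. The 75th percentile of the processed signal ranged from 176 to 184 in Sham and from 132 to 165 in DJB, and 62.6% to 68.8% of all probes were well above background, with 0 saturated spots. Sham-1, Sham-3, DJB-1 and DJB-2 were on the first slide, and Sham-2 and DJB-3 on the second. Levels below are log2 processed signal less the array's 75th percentile, and differences are DJB minus Sham on that scale. The number of arrays limits the precision, and an exact permutation test of 3 against 3 arrays cannot give a two-sided p under 0.10, so members were tested with limma across all 99436 tested probes and called at a Benjamini-Hochberg adjusted p under 0.05. In bulk tissue, fewer cells of a type and less RNA per cell cannot be told apart.

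Of the 3244 tested members, 47 (1.45%) were called higher in DJB and 54 (1.66%) lower. Of every tested probe on the array, 1.83% were higher and 3.15% lower by the same rule. At an unadjusted p under 0.05, 427 members were higher and 329 lower (23.3% together), against 15504 and 12545 of all tested probes (28.2% together). That 28.2% is the background for the unadjusted counts of members given further on. The median difference of the members was 0.07 and that of all tested probes 0.08. In 612 members (18.9%) the 3 DJB arrays all lay above the 3 Sham arrays, against 21.8% of all probes, and in 378 (11.7%) all below, against 14.2%. These shares are near or below the background. The called members named 65 host genes, 33 with members called higher and 32 with members called lower, and no host had both. In 18 hosts 2 or more members were called, 49 members in all, and members of a host often share letters.

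The calls rested on few arrays. Leaving out Sham-1 gave 0 higher and 0 lower calls, Sham-2 gave 0 and 2, Sham-3 gave 8 and 26, DJB-1 gave 0 and 6, DJB-2 gave 0 and 1, and DJB-3 gave 21 and 71. Not all of these were among the 101 main calls, only 24 of 34 without Sham-3 and 49 of 92 without DJB-3. With the slide as a block 1 was called higher and 3 lower. In all 101 the DJB arrays lay wholly above or wholly below the Sham arrays, so the sign could not differ between slides. Higher calls made up 46.5% of the calls, but 61.5% with median scaling, 61.4% with quantile normalization, 61.6% with the authors' value table and 80.7% after normexp background correction. The members' median was 0.18 with median scaling, and that of all probes 0.19.

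Calls were mostly higher in the shorter classes and mostly lower in the longest, where they were few, and a trend over classes was not tested. Among intervals of 50 to 75 kb, 29 of 1511 tested members were called higher and 22 lower. From 75 to 100 kb 11 of 704 were called higher and 11 lower, and from 100 to 150 kb 5 of 607 were called higher and 10 lower. From 150 to 200 kb the counts were 2 and 3 of 185. Of 237 tested members of 200 kb or more, limma called 0 higher and 8 lower (3.38%), against 1.83% and 3.15% of all tested probes. At an unadjusted p under 0.05, 20 of the 237 were higher and 29 lower (20.7% together), against 28.2% of all tested probes. In the intervals under 1 kb 3.21% were called higher and 1.26% lower, with a median difference of 0.19. The share tested also fell along the classes, from 88.5% under 1 kb to 59.1% at 200 kb or more.

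**Figure D2:**
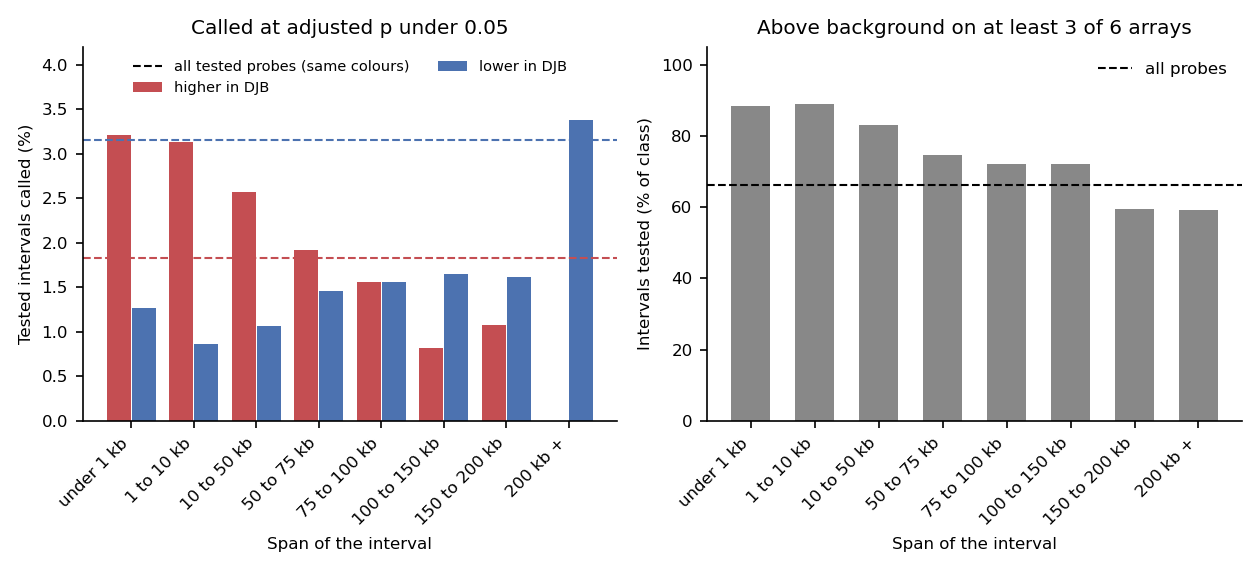
Left, percent of tested intervals called higher (red) or lower (blue) in DJB at an adjusted p under 0.05 by span of the interval (x axis), with dashed lines for all tested probes. Right, percent of intervals in each class that were tested, with a dashed line for all probes. Higher calls were 3.21% under 1 kb and 0% at 200 kb or more, where 3.38% were called lower and 59.1% were tested.

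Of the 54 members called lower, 41 were above background on at least 1 DJB array. Their differences ran from -2.45 to -0.49 with a median of -1.18, and 26 of the 41 were at least 2-fold. The largest of these differences in a probe above background on all 6 arrays was in Fgf13. The Fgf13 interval of 125 kb measured -0.11, -0.63 and -0.13 in Sham and -2.51, -3.35 and -2.34 in DJB. Every DJB value lay below every Sham value, and the groups were likewise apart in all 101 called members. The difference was -2.45 (SE 0.30, n = 3 and 3, adjusted p = 0.0236), and it was -2.81 within the first slide and -1.72 within the second.

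Sgcd had 9 members, of which 7 were tested and 3 called lower. The interval of 273 kb measured 2.48, 1.84 and 2.29 on Sham and -0.18, 0.54 and 0.98 on DJB arrays. It fell by 1.76 (SE 0.32, adjusted p = 0.0425), with DJB-3 nearest to the Sham arrays. The intervals of 160 and 230 kb, whose probes share the upstream letters shown above, fell by 1.53 and 1.37. The groups did not overlap in any of the 3, and 2 other tested Sgcd members had positive differences. The Sgcd mRNA probe fell by 1.83 (adjusted p = 0.0283).

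Further lower calls lay in Ptprk, Ptprd, Tns1 and Pakap. Ptprk, a receptor tyrosine phosphatase of cell contacts, had 7 tested members, all negative, of which 4 were called, with differences of -1.40, -1.35, -1.29 and -1.18. Its interval of 149 kb measured -1.71, -2.18 and -2.39 on Sham and -3.55, -3.37 and -3.55 on DJB arrays. Ptprd, a phosphatase of the same family, had 1 called member at -1.53, and 1 of its other 4 tested members was positive. Tns1, or tensin, which links integrins to actin, fell by 1.58 (SE 0.27, adjusted p = 0.0389) in its interval of 87.7 kb. The Pakap interval of 189 kb, in the host of an anchor protein for protein kinase A, fell by 1.36 (SE 0.16, adjusted p = 0.0221).

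Lower calls with smaller differences included Zfp423, Nfix, Zbtb20 and Arhgef3. The interval of 131 kb in Zfp423, a zinc finger factor of preadipocytes, measured 1.55, 1.25 and 1.35 on Sham and -0.16, 0.05 and 0.51 on DJB arrays. The groups were apart, and the difference was -1.25 (SE 0.20, adjusted p = 0.0338). The Nfix intervals of 59.2 and 58.5 kb, which name the same downstream end, fell by 0.58 and 0.49. The first measured 5.41, 5.44 and 5.52 on Sham and 4.82, 4.92 and 4.88 on DJB arrays, with a narrow spread in each group. Zbtb20 fell by 0.84 in an interval of 275 kb, and Arhgef3, a guanine nucleotide exchange factor, by 1.01 in one of 122 kb.

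For the other 13 lower calls no DJB array was well above background, so that only a bound can be given. The bounds ran from 1.23-fold to 4.24-fold, and 7 of the 13 were 2-fold or more. P-values given with a bound come from limma on the values as measured, and the bounds themselves were not tested. The bound sets the Sham mean against a DJB mean in which any value under the lowest one well above background on that array was raised to it. Trhde codes for an ectoenzyme that cleaves thyrotropin-releasing hormone. Its interval of 92.2 kb measured -2.531, -2.997 and -2.506 on Sham and -7.02, -6.56 and -5.49 on DJB arrays, none of the latter well above background. It was at least 4.24-fold lower (adjusted p = 0.0183, and 0.0428 with the slide as a block). Dpyd, which codes for the first enzyme of pyrimidine breakdown, was at least 3.03-fold lower in its interval of 147 kb (adjusted p = 0.0125). The Ulk4 interval of 228 kb was at least 2.92-fold lower. Sox6, a transcription factor of muscle and cartilage, was at least 2.71-fold lower in its interval of 80.6 kb and 2.70-fold in that of 167 kb, and all 7 of its tested members were negative. The Ryr2 interval of 70.0 kb, in the gene for the cardiac ryanodine receptor, measured -4.123, -4.064 and -4.002 on Sham arrays and was at least 1.62-fold lower. The Rora interval of 71.0 kb was at least 1.72-fold lower. Its sign turned after normexp correction, where it was 0.012, as did those of 3 other lower calls, in Ryr2 (70.6 kb), Ppp1r12b and Trhde (64.3 kb), at 0.072, 0.017 and 0.025.

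Members called higher had smaller differences, from 0.49 to 1.16 with a median of 0.75, and 4 of the 47 were at least 2-fold. All 4 lay in Mctp1 and Arhgap22. Mctp1 codes for a membrane protein with calcium-binding C2 domains and was on the list of genes of immune cells. All 13 of its members were tested and positive, from 0.58 to 1.17, and 5 were called. In 12 of the 13 the groups did not overlap. The interval of 86.5 kb measured -3.54, -3.23 and -2.92 on Sham and -2.01, -1.96 and -2.44 on DJB arrays, so the lowest DJB array was DJB-3. Its difference was 1.09 (SE 0.21, adjusted p = 0.0462). The interval of 74.5 kb, above background on 1 Sham array and all DJB arrays, had a difference of 1.16 (SE 0.19, adjusted p = 0.0368).

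Arhgap22, which codes for a GTPase-activating protein for Rac, had 3 tested members, all with groups apart and 2 called. The interval of 81.8 kb measured -2.31, -2.68 and -2.36 on Sham and -1.17, -1.41 and -1.66 on DJB arrays. It rose by 1.03 (SE 0.17, adjusted p = 0.0373, and 0.0465 with the slide as a block). It was the only member called higher with that block.

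The Atp6v1h interval of 54.4 kb, in the gene for subunit H of the vacuolar proton pump, measured 0.78, 0.78 and 0.98 on Sham and 1.91, 1.69 and 1.89 on DJB arrays. The groups were apart, and the difference was 0.99 (SE 0.12, adjusted p = 0.0244). Stxbp5 codes for tomosyn, a protein that binds SNAREs and restrains vesicle fusion. All 6 of its members had DJB arrays above the Sham arrays and 4 were called, with differences of 0.60 to 0.90. The Stxbp5 interval of 58.3 kb measured -1.003, -0.730 and -0.673 on Sham and 0.11, 0.07 and 0.11 on DJB arrays (adjusted p = 0.0283). Snx27, a sorting nexin of endosomes, had 2 of 3 members called at 0.69 and 0.68. Vps8, of the endosomal CORVET complex, rose by 0.64 and Rab31, a GTPase of endosome traffic, by 0.80.

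Slc41a2, a magnesium transporter, rose by 0.94 (SE 0.17, adjusted p = 0.0417) in its interval of 62.0 kb. The Kcnh7 intervals of 72689 and 59998 bases, in a potassium channel gene, rose by 0.92 and 0.82. They are dim, between -4.49 and -4.05 in Sham and between -3.54 and -3.27 in DJB for the first. Mgat5, which makes branched N-glycans, had 2 of 2 members called, at 0.83 and 0.73, and St6gal1, a sialyltransferase, had 1 of 1 at 0.78. The Runx1 interval of 55.2 kb, in the gene for a transcription factor of blood cells, measured -1.56, -1.38 and -1.46 on Sham and -0.77, -0.63 and -0.77 on DJB arrays, a difference of 0.74 (adjusted p = 0.0312). Rftn1, or raftlin, rose by 0.82 (adjusted p = 0.0495).

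**Figure D3:**
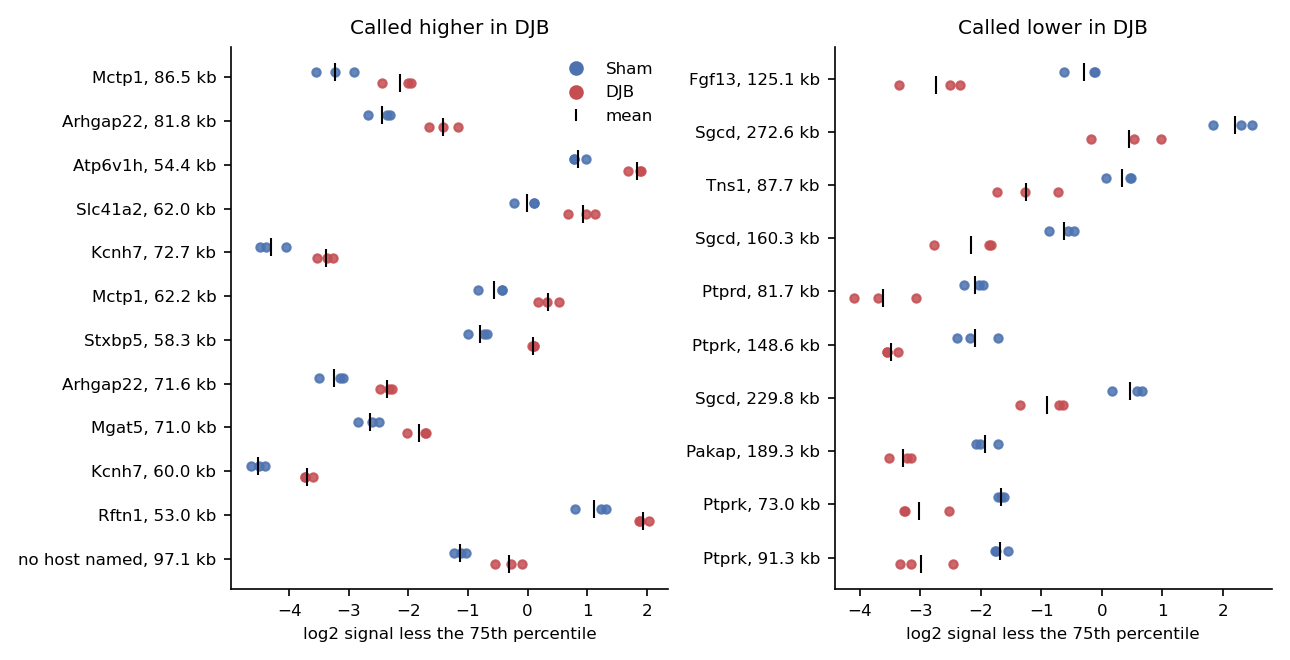
Log2 signal less the array's 75th percentile (x axis) on each Sham and DJB array, with a tick for each group mean, of the 12 called intervals with the largest positive differences and of 10 of the 12 with the largest negative ones among those above background on all 6 arrays. Groups that do not overlap were a condition of the choice. The Fgf13 interval of 125 kb has the widest gap with a difference of -2.45, and the higher calls reach 1.09.

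Members of one host usually had the same sign. In 1978 tested pairs with a common upstream end the differences of the pair had the same sign in 77.2% and lay apart by a median of 0.12. In 1305 pairs with a common downstream end the same sign held in 77.2% with a median gap of 0.15, and in 7280 pairs of one host that share neither end in 75.1% with 0.17. Across these pairs, which share arrays, host and in part letters, Pearson's r was 0.79, 0.68 and 0.62. Of 192 hosts with 5 or more tested members, 49 had positive members only, 29 negative only and 114 both.

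Of the hosts with the most tested members, 8 were taken, and the tie at 20 tested members was broken toward Lpp by name. Sh3kbp1, also with 20, had all of them positive with a median of 0.47 and a highest value of 0.99, and 1 called. In the 8 hosts, of 196 tested members 0 were called with limma, and 9 were higher and 11 lower at an unadjusted p under 0.05. Dennd1a, which codes for an exchange factor for Rab35, had 30 tested members of 31. All 30 were positive, from 0.04 to 0.36 with a median of 0.25, and in 13 the DJB arrays all lay above the Sham arrays. Its mRNA probe differed by 0.23. Agap1, a GTPase-activating protein for Arf, had 21 positive of 21 tested with a median of 0.31, and Fer, a tyrosine kinase, 19 of 21 with 0.23. Gphn, which codes for gephyrin, had 24 negative of 26 with a median of -0.18, and Celf2, a splicing regulator, 19 of 23 with -0.31. In Atxn1, Cdkal1 and Lpp 14 of 29, 16 of 26 and 13 of 20 tested members were positive, with medians of -0.001, 0.038 and 0.039. In Dennd1a the 44 pairs with a common upstream end lay apart by a median of 0.06 and the 41 pairs with a common downstream end by 0.07.

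In a few hosts single members stood apart from the others. These were picked after their values were seen, and the difference between members was not tested. Dtnb, which codes for beta-dystrobrevin, had 12 tested members, of which 10 were negative. Its interval of 129 kb measured 0.49, 0.50 and 0.57 on Sham and 1.28, 1.15 and 1.06 on DJB arrays and rose by 0.64 (adjusted p = 0.0380). The interval of 101 kb, which names the same downstream end, measured -2.17, -2.14 and -2.73 on Sham and -3.01, -2.95 and -2.79 on DJB arrays, a difference of -0.57. The interval of 97.7 kb, with the same upstream end, had a difference of -0.50. Neither of these passed the test. The Fgf13 interval of 90.7 kb, whose downstream end is that of the 125 kb interval, measured -3.91, -3.71 and -3.82 on Sham and -3.84, -4.14 and -4.35 on DJB arrays. Its groups overlapped, with a difference of -0.29.

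Each member was also set against its own host. For 2315 tested members of 694 hosts named by strand, the brightest tested RefSeq mRNA probe of the host was subtracted array by array and the difference was tested with limma over all 23702 such pairs of the array. The members' differences and those of their host probes had a Pearson r of 0.59 and a Spearman correlation of 0.66 across pairs, which share arrays and hosts. Where the host probe was called lower (162 pairs) its median was -0.95 and that of the intervals -0.43. Where it was called higher (20 pairs) the medians were 0.78 and 0.60. A pair is called higher or lower by the DJB minus Sham difference of the interval relative to that of its host probe. Which of the pair was brighter does not enter the call. In 30 pairs (1.30%) the interval was called higher in this sense, against 0.785% of all pairs, and in 1 pair lower, against 0.0675%. The share called higher was 1.19% in intervals under 1 kb, 0.572% from 1 to 10 kb and 0.801% from 10 to 50 kb. Pair differences were positive in 70.2% of the members' pairs and in 73.2% of all pairs. Host probes were called lower in 162 of the 2315 pairs, against 1140 of all 23702.

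The 30 pairs lay in 21 hosts, and the host probe had a negative difference in all 30, called lower in 19. The interval itself was within 0.5 of no difference in 25 pairs, with a median of 0.09 against -2.03 for the host probes as measured, and 27 of the intervals were above background on all 6 arrays. Leaving out Sham-1 or DJB-2 gave 4 pairs, Sham-2 16, DJB-1 14, Sham-3 59 and DJB-3 84. Of the pairs called either way, 19 without Sham-3 and 26 without DJB-3 were also called with all 6 arrays. With the mean over the host's probes in place of the brightest there were 12, after normexp correction 487, with the authors' values 51 and with the slide as a block 19.

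In 9 of the 30 pairs, in Mlip, Trhde, Egfem1 and Npas3, no DJB array had the host well above background, so the pair is given as a bound, with the host's DJB level taken as for the bounds on single probes. As there, the p-values come from limma on the values as measured and not on the bounds. Mlip had 4 of these pairs. The brightest Mlip mRNA probe measured -2.09, -2.93 and -1.86 on Sham and -6.95, -6.77 and -6.73 on DJB arrays, where it was not well above background, and was at least 5.53-fold lower (adjusted p = 0.00629). The second tested Mlip mRNA probe was called lower too, at -4.07. The interval of 79.0 kb measured -0.94, -1.37 and -0.93 on Sham and -0.85, -0.71 and -1.40 on DJB arrays. It was above background on all 6 arrays, the groups overlapped, and its difference was 0.09 (SE 0.22). Its DJB to Sham ratio was at least 5.89-fold that of the host probe (adjusted p = 0.00177). The intervals of 57.1 and 57.0 kb differed by 0.08 and -0.05, with DJB to Sham ratios at least 5.86-fold and 5.35-fold that of the host probe. The interval of 66.3 kb differed by -0.46 with a wide spread, from -1.63 to 0.30 in Sham and from -1.36 to 0.18 in DJB. The other 6 Mlip members were not tested because they were too dim.

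The brightest Trhde mRNA probe was at least 4.76-fold lower. The Trhde interval of 74.1 kb measured -3.89, -4.06 and -3.91 on Sham and -5.63, -4.16 and -3.37 on DJB arrays, so the groups overlapped. Its DJB to Sham ratio was at least 3.52-fold that of the host probe (adjusted p = 0.0174). The other 3 tested Trhde members were called lower. The Egfem1 mRNA probe was at least 2.97-fold lower. The dim Egfem1 interval of 83.9 kb measured -4.68, -4.36 and -4.72 on Sham and -4.32, -4.16 and -3.74 on DJB arrays. Its difference of 0.51 was not called. Its DJB to Sham ratio was at least 4.24-fold that of the mRNA probe (adjusted p = 0.0268). The mRNA probe of Npas3, a neuronal transcription factor, was at least 1.56-fold lower. For 3 of its 4 tested intervals the pair was called higher, with DJB to Sham ratios at least 1.72-fold, 1.67-fold and 1.45-fold that of the probe.

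Hosts that stayed above background on DJB arrays gave pairs as well. Lrrc4c, which codes for a netrin-G ligand, had an mRNA probe that fell by 2.96, while its interval of 83.6 kb measured -2.70, -2.32 and -1.71 on Sham and -1.59, -1.40 and -1.93 on DJB arrays. The pair differed by 3.56 (SE 0.30, adjusted p = 0.0107). Mboat2 codes for an acyltransferase of phospholipid remodelling, and its 5 tested intervals name the same upstream end. Its mRNA probe measured -0.27, -0.84 and -1.33 on Sham and -3.21, -3.60 and -2.70 on DJB arrays. The interval of 68.5 kb measured -2.40, -2.04 and -2.19 on Sham and -1.988, -2.003 and -2.227 on DJB arrays. It lay below the mRNA probe on the Sham arrays and above it on the DJB arrays. The pair differed by 2.49 (SE 0.39, adjusted p = 0.0467). The other 4 had pair differences of 2.24 to 2.65 that did not pass the test. The Dmd interval of 53.5 kb, in the dystrophin gene, measured 2.78, 2.77 and 2.91 on Sham and 2.84, 2.88 and 2.65 on DJB arrays, while the Dmd mRNA probe fell by 1.27, so that the pair differed by 1.24 (adjusted p = 0.0141). The Dmd intervals of 205 and 56.1 kb fell by 1.15 and 0.99. The Fgf13 interval of 90.7 kb had a pair difference of 2.41 (adjusted p = 0.0319), though it was dimmer than its brightest mRNA probe on every array. The pair difference of the 125 kb interval was 0.26, which did not pass the test. The 5 tested Fgf13 mRNA probes ranged from -2.70 to -0.37, and 4 of them were called lower. Likewise the Rap1gap2 interval of 82.4 kb had a difference of 0.03 and that of 72.7 kb fell by 0.80, with an mRNA probe that fell by 1.64.

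In 1 of the 30 pairs the interval itself was called, the Plekha6 interval of 78.6 kb, at -3.90, -3.99 and -3.82 on Sham and -2.88, -3.02 and -3.39 on DJB arrays. It rose by 0.81 and its host probe differed by -0.26. The 1 pair called lower was in Zmiz1, a transcriptional coactivator. Its interval of 64.0 kb differed by -0.18 and its mRNA probe by 0.62, neither of which passed the test, and the pair by -0.80 (SE 0.10, adjusted p = 0.0312).

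**Figure D4:**
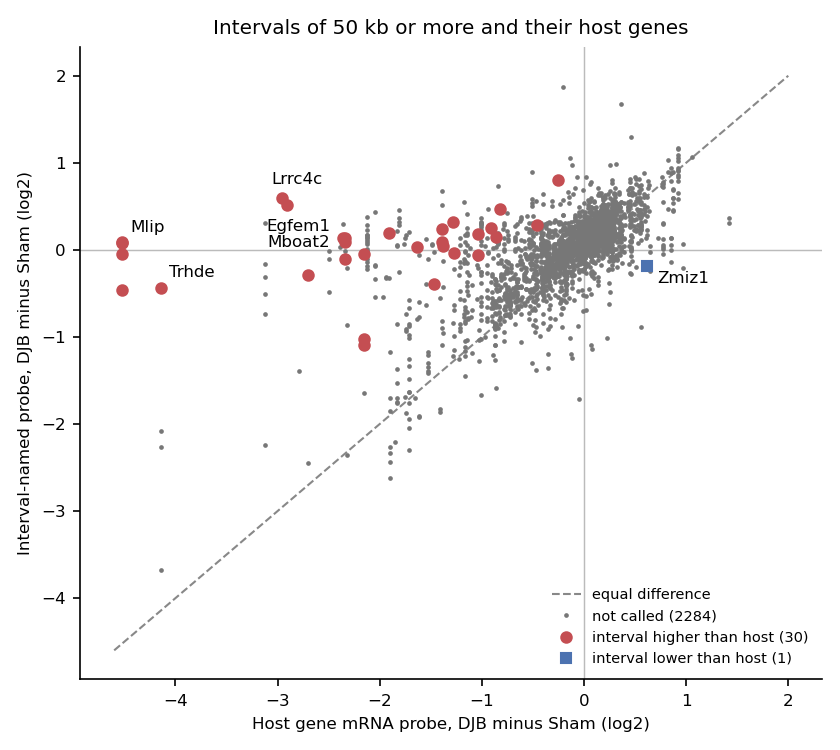
Difference between DJB and Sham (log2) of each interval of 50 kb or more (y axis) against that of its host gene's brightest mRNA probe (x axis) for 2315 pairs, with a dashed line of equal difference. The 30 pairs called higher than the host (red) lie to the left, with host differences of -4.52 to -0.26 and interval differences of -1.10 to 0.81, and the 1 pair called lower is blue. Host probes not above background are plotted as measured.

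**Figure D5:**
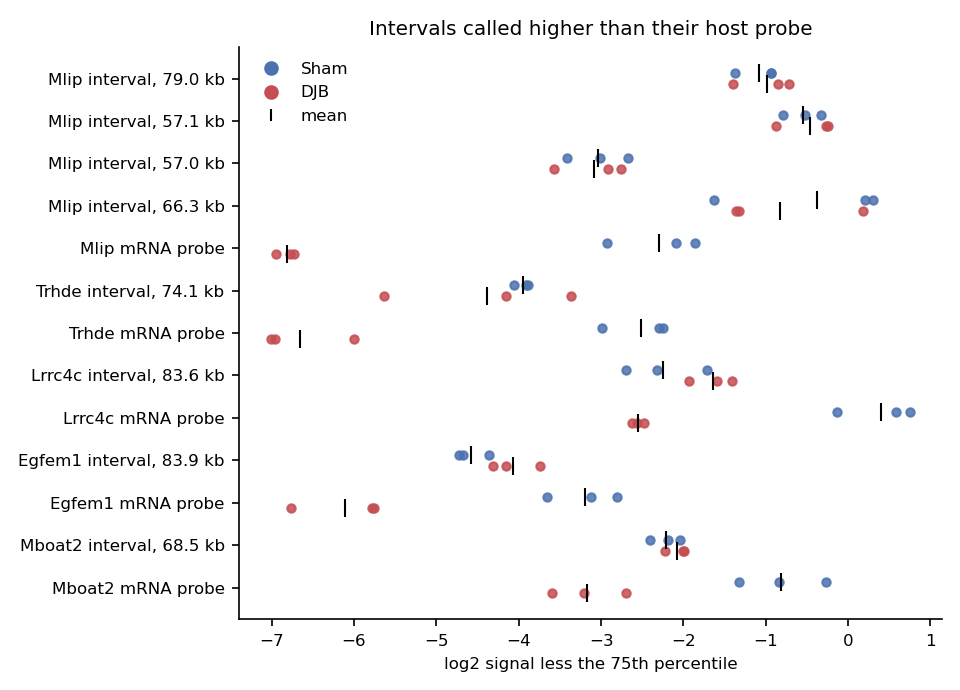
Log2 signal less the array's 75th percentile (x axis) on each Sham and DJB array, with a tick for each group mean. Shown are 8 intervals whose difference was called higher than that of their host. The mRNA probes are those of the 5 hosts, Mlip, Trhde, Lrrc4c, Egfem1 and Mboat2. The host probes fall to the left on DJB arrays, the Mlip probe from about -2.29 to -6.82 in the mean, the latter not well above background, while the Mlip intervals stay in place.

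The host genes were grouped by function in 12 lists. Over 17717 genes with a RefSeq mRNA probe, 1.41% were called higher and 6.02% lower. In the list of adipocyte and lipid genes, 1 of 72 tested members was called higher, in Osbpl1a, and 5 lower, Zfp423 and Rora among them, with a median of 0.08. Of that list's 72 genes 2 were higher and 11 lower. In the list of cytoskeleton and adhesion genes, 3 of 165 members were called higher, in Kif16b, Ptk2 and Diaph3, and 7 lower, in Sgcd, Dmd, Utrn and Tns1, and of 85 genes 1 was higher and 16 lower. In the striated muscle list 0 of 36 members were called higher and 6 lower, in Fgf13, Ryr2 and Sgcd, and of 43 genes 0 were higher and 11 lower. In the list of axon guidance and neural adhesion genes 0 of 159 were called higher and 5 lower, in Ptprk and Ptprd, and of 68 genes 0 were higher and 14 lower.

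The remaining lists held few calls. The immune cell list had 5 of 86 members called higher, all in Mctp1, and 0 lower, and of 63 genes 4 were higher and 2 lower. Regulators of small GTPases had 244 tested members with a median of 0.19, of which 1 was called higher, in Tbc1d22a, and 3 lower, in Sipa1l1 and Arhgef3. Chromatin and transcription genes had 182, with 1 called higher (Runx1) and 3 lower (Zbtb20 and Nfix). Ubiquitin and protein turnover genes had 66, with 1 called higher (Vps8) and 0 lower. With limma 0 of 78 members of insulin and growth factor signalling genes, 0 of 45 of extracellular matrix genes and 0 of 108 of RNA-binding genes were called, with medians of -0.10, -0.12 and -0.01. At an unadjusted p under 0.05 these lists had 9 higher and 7 lower, 2 and 4, and 9 and 15.

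Factors that are known to bind introns and favour or hinder back-splicing were read from their mRNA probes. Of 43 genes on that list 0 were called higher and 1 lower, and at an unadjusted p under 0.05 limma gave 2 higher and 4 lower. Khdrbs3, which codes for an RNA-binding protein of the STAR family, fell by 1.18 (SE 0.23, adjusted p = 0.0452). The others past the unadjusted threshold, none of them called, were Adarb1, Rbm20 and Nova2 at -0.74, -1.41 and -1.01. On the higher side were Ago2 and Ddx39a at 0.53 and 0.49. Adar, the adenosine deaminase that edits paired introns, differed by 0.13 (SE 0.16), Qk, or quaking, by 0.03 (SE 0.11) and Dhx9, a helicase that unwinds such introns, by -0.14 (SE 0.14), none past the test. Leaving out Sham-1, Sham-2, Sham-3, DJB-1 or DJB-2 left 0 calls in the list. The 11 tested members in hosts of this list had a median of -0.28, and 0 were called, with 1 higher and 6 lower at an unadjusted p under 0.05.

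Marker genes of other cell types differed between the groups. The figures that follow are sums over each list of processed signal in units of the array's 75th percentile. Skeletal muscle markers summed to between 40.4 and 98.5 in Sham and between 11.4 and 15.1 in DJB, with 5 of 9 tested called lower (Acta1, Casq1, Myh2, Pvalb and Tnnc2) and Myh4 not tested. The other 4 (Ckm, Tnnt3, Myh1 and Mylpf) had positive differences of 0.07 to 0.31 that did not pass the test. Smooth muscle markers summed to 313 to 462 and 124 to 153, with 3 of 6 lower, mesothelium to 148 to 191 and 32.6 to 81.0, with 2 of 7 lower, and liver to 83.9 to 181 and 16.6 to 43.9, with 4 of 8 lower. Of the other liver markers Apoa1, Ttr and Tat had positive differences of 1.62, 0.44 and 0.04, none past the test. Macrophage markers summed to between 1084 and 1425 in Sham and between 1822 and 2265 in DJB. Of the 9, 3 were called higher (Gpnmb, Itgam and Mmp12), and Cd163 had a negative difference of -0.56 that did not pass the test. Adipocyte markers, which define the labelled tissue, were present on every array and summed to 3817 to 4262 and 2418 to 3490. Of the 10, 3 were called lower (Lep, Pparg and Retn). Adipoq at -1.12 did not pass the test, nor did Cd36 and Fabp4 with positive differences of 0.42 and 0.08. Endothelium had 1 of 7 lower, and T and B cell markers 0 of 4 each. The sums of these lists, apart from the lymphocytes, did not overlap between the groups, and their part in the lower calls of Sgcd, Fgf13, Ryr2 and Sox6 and in the higher calls of Mctp1 was not tested.

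The 6 longest tested members were not called. They were Lpp at 480 and 447 kb, Ctnnd2 at 475 kb, Celf2 at 464 kb, Rbms3 at 447 kb and Foxp1 at 445 kb, with differences of 0.11, 0.05, 0.25, 0.23, 0.17 and 0.20. The Celf2 interval measured 0.28, 0.20 and 0.36 on Sham and 0.67, 0.56 and 0.29 on DJB arrays, so the groups overlapped through DJB-3. At the other limit, the tested members just inside the span minimum were those of Vta1 (50001 bases), Ctif (50004) and Hace1 (50023), with differences of 0.22, -0.40 and 0.06. The interval-named probes just outside it were those of Sntg2 (49981 bases), Smoc2 (49984) and Gphn (49994), with -0.21, -0.92 and -0.05.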

How the data were processed

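Per the file headers, the arrays were read with Agilent Feature Extraction 12.0.3.1 (protocol GE1_1200_Jun14), and the deposited processed intensity is background-subtracted on a linear scale. A log2 value table, also deposited, served as an alternative. The submitters' processing notes list limma but give no role for it. Members, lists and tests were chosen with earlier results of these data known. Processed intensity was taken as log2, less each array's 75th percentile over 150305 non-control probes. Probes well above background on at least 3 of 6 arrays entered limma 3.58.1 (R 4.3.3; lmFit, eBayes) with Benjamini-Hochberg adjustment. The same fit was also run on simulated data. Replicate numbers did not pair the arrays (r of -0.18, -0.12 and -0.29 between same-numbered arrays). Host genes came from the GRCm38.p6 RefSeq gene table by position, with strands from the RefSeq promoter table. Sequences are the deposited probe letters.

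Named were up to 12 called members each way with the largest differences, non-overlapping groups and signal above background on all 6 arrays, up to 6 with a bound, the 6 longest, the 8 hosts with most tested members, the 3 on either side of the span minimum, up to 8 pairs each way and up to 4 called members a list. Other names were chosen after their values were seen, and the members of 1 host are not reported here. Alternatives covered background correction, scaling, the filter, the prior, slide, replicate number, span and single arrays. The design text of the series describes another experiment and was not used.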

Additional observations from a re-analysis of the deposited data

How the results depend on the processing

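Counts of called members (47 higher, 54 lower) and of pairs (30 higher, 1 lower) depended on most choices. Leaving out single arrays gave 0 to 21 members higher, 0 to 71 lower, 4 to 84 pairs higher and 0 to 3 lower. With no filter on dim probes 1 member was higher and 7 lower, with the slide as a block 1 and 3, with 1 probe per host 17 and 21, from 100 kb 7 and 21, and with a trended robust prior 106 and 90. Higher calls were 201 after normexp correction and 86 with all 6 arrays above background, and lower calls were 30 with median scaling. With the replicate number as a block, 0 members were called either way, 6 pairs were higher and 0 lower, and 0 back-splicing factors were lower. Pairs called higher were 51 with the authors' values, 12 with the mean over host probes, 487 after normexp correction, 19 with the slide block and 5 from 100 kb. Pairs called lower were 2 with the authors' values, 3 with both probes above background on all arrays, 11 after normexp correction and 0 from 100 kb. The members' median difference of 0.07 was 0.13 with the authors' values, 0.13 after normexp correction, 0.13 after quantile normalization, 0.18 with median scaling and 0.051 to 0.111 without single arrays (0.111 without DJB-3).

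Of the back-splicing factors 2 were higher with the trended robust prior. Lower calls among them were 4 after normexp correction and 0 with median scaling, no filter or the slide block, and 0 to 1 without single arrays. For single named members and pairs, 433 alternative values kept sign and side of the threshold, 415 lost the call, and 1 reversed: the Rora interval measured 0.012 after normexp correction. Over all 101 called members, 4 changed sign with that correction and 0 with the other scalings, filters or prior. The cause was not tested. Few arrays and dim spots near background limit what these data can show.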

Other observations

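In some hosts every tested member had the same sign, mostly without a call, and the hosts given here were picked after their values were seen. Ghr, the growth hormone receptor gene, had 18 tested members, all negative, from -1.26 to -0.33 with a median of -0.86. That median was -1.35 within the first slide and -0.13 within the second, and the mRNA probe differed by -0.87. Pcca, which codes for a subunit of propionyl-CoA carboxylase, had 16 of 16 negative with a median of -0.61, and in 11 the DJB arrays all lay below the Sham arrays. Sh3kbp1, an adaptor of receptor endocytosis, had 20 of 20 positive with a median of 0.47, the groups were apart in 18, and 1 was called. Elmo1, which acts with Dock proteins in engulfment and migration, had 16 of 16 positive with a median of 0.38. The Sh3kbp1 medians were 0.48 and 0.47 within the slides, and those of Pcca -0.85 and -0.12.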
